A study of Mus musculus with 6 samples.

Results

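The genes described here encode enzymes around the leukotrienes, the lipid mediators that the transporter *Abcc1* carries out of cells. They are *Pla2g4a*, the lipoxygenases *Alox12*, *Alox15*, *Alox8*, *Alox12b* and *Aloxe3*, the hydrolase *Lta4h*, and the gamma-glutamyl transferases *Ggt1* and *Ggt5*. A probe set, a short group of array probes that reads about 1 exon, was taken as a member if its single annotated symbol was 1 of these 9 names. All 9 genes were found, with 148 of the 58919 probe sets tested and 14 to 19 probe sets each, and none of the 148 held the same values as another probe set. They make up 9 of the 5017 genes analysed here, of which 4918 lie on chromosomes 1, 10, 11, 12 and 13, so counts over all genes below are not array-wide.

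Total RNA from mouse brain was hybridised to 6 one-colour Affymetrix arrays. The 3 control arrays are from mice of genotype APPPS1-FVB, and the 3 knockout arrays, named so by their titles, from genotype APPPS1-FVBxABCC1. APPPS1 is a transgenic amyloid model in which a *Thy1* promoter drives mutant human APP and presenilin in neurons, FVB is an inbred strain, and both groups carry the transgenes. Age, sex, brain region, whether the *Abcc1* alleles were all lost and whether each array is a separate mouse are not given in the labels, so a p-value here speaks of the spread among these 6 arrays alone, which may be technical.

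Leukotrienes are made from arachidonic acid. Cytosolic phospholipase A2 frees it from membranes, and the lipoxygenase encoded by *Alox5* turns it into leukotriene A4. *Alox5* is no member and is not analysed here. Leukotriene A4 is either hydrolysed to leukotriene B4 or joined to glutathione to give leukotriene C4, which *Abcc1* exports. Outside the cell, gamma-glutamyl transferases trim leukotriene C4 to leukotriene D4. The lipoxygenases of the set form other products, such as hydroxy acids, and some of them are best known from skin, platelets and macrophages. *Abcc1* itself is not analysed here, so the knockout labels could not be checked against the targeted gene.

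No gene of the set passed the test. With limma, 0 of 9 had an adjusted p below 0.05 by gene mean, the mean log2 signal of all probe sets of a gene, and 0 of 9 had a raw p below 0.05. Over all 5017 genes the same fit called 0, or 0%, and 706 genes (14.1%) had a raw p below 0.05. The 9 adjusted p-values lay between 0.407 and 0.949, the log2 differences, knockout minus control, between -0.091 for *Aloxe3* and 0.23 for *Alox12*, with 5 genes lower and 4 higher. The median difference was -0.050, against -0.0044 over all genes, of which 51.4% had a difference below 0.

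The 3 knockout values lay below all 3 control values in *Alox8* and *Aloxe3*. This is 2 of 9 genes, where 8.85% of all genes were separated in that direction, and 0 of 9 were separated upwards, where 11.3% of all genes were. An exact two-sided permutation test of 3 arrays against 3 cannot give a p below 0.1, so such a separation is not a call.

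**Figure D1:**
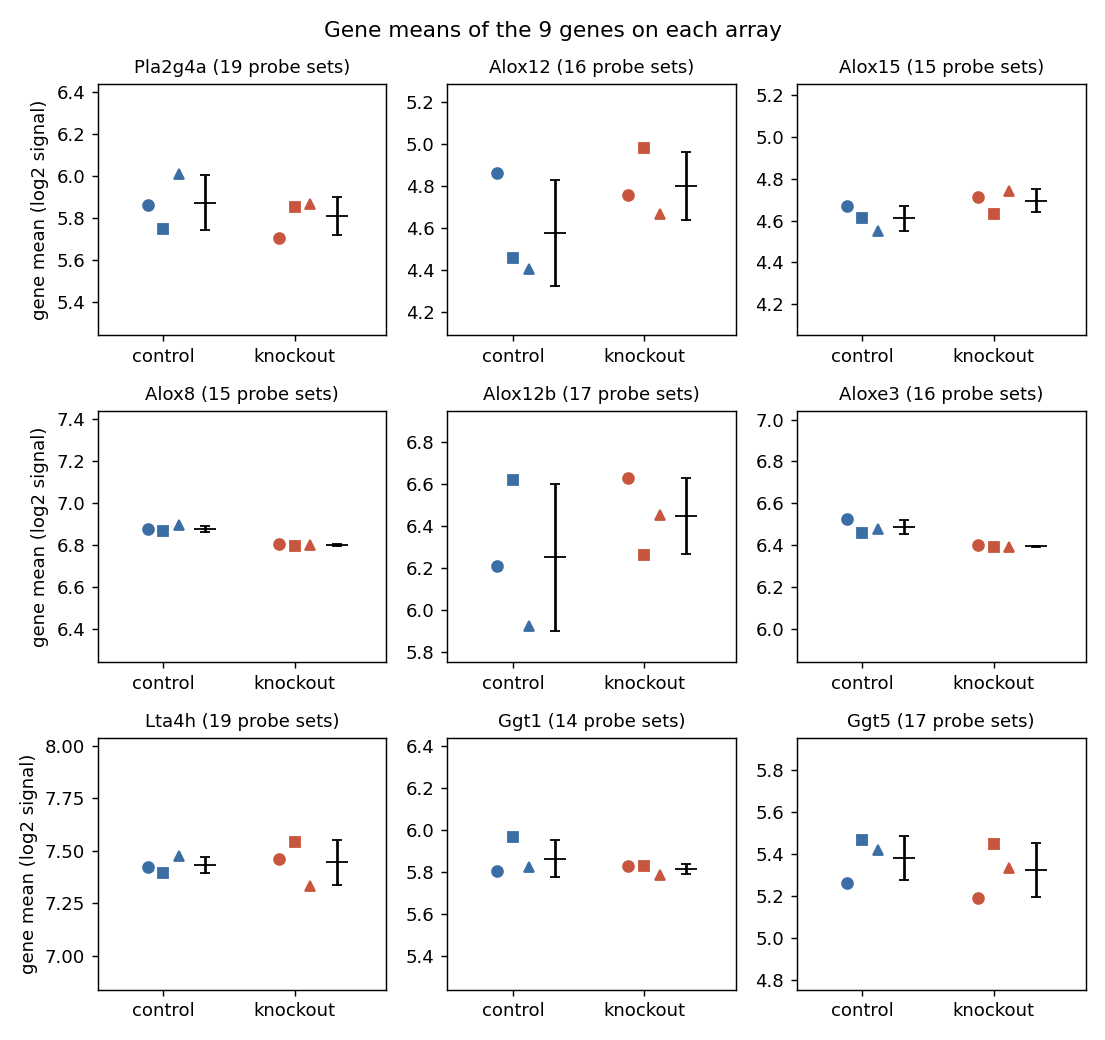
Gene mean of each of the 9 genes (log2 signal, vertical axis, 1.2 log2 units high in every panel) on the control arrays (blue) and knockout arrays (red). Circles, squares and triangles are replicates 1, 2 and 3, and the black bar gives the group mean with its SD; the groups are apart in *Alox8* and *Aloxe3* and overlap in the other 7 genes.

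As a yardstick for low signals, 181 probe sets of olfactory receptor genes, which brain tissue hardly expresses, had a median signal of 3.38 and a 95th percentile of 5.02 on the log2 scale. Their median was 3.38 in controls and 3.37 in knockouts, so this background was alike in both groups. A probe set above 5.02 is called above background here. Of the 148 probe sets, 112 were above it. Signals of different genes come from different probes and do not rank their transcripts.

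The correlation of 1 array with another was 0.984 to 0.990, and array medians lay between 7.04 and 7.09. *Syt1* and *Map2*, neuronal genes, were at 11.56 to 11.69 and 10.41 to 10.52, and *Cnp* of oligodendrocytes at 10.16 to 10.38, as gene means on the single arrays. The 3 measured genes of microglia and macrophages averaged 6.86 to 6.90 in controls and 6.98, 6.17 and 6.82 in knockouts 1, 2 and 3. Knockout 1 was above every control, while all 3 genes had lower means in the knockout group (median difference -0.17, 0 with a raw p below 0.05). In the other direction *Kcnj13*, a channel gene of choroid plexus, was higher by 0.21 (raw p below 0.05), while *Ace* of that list differed by -0.025. All 3 measured astrocyte genes, all 4 of meningeal fibroblasts and the red cell gene *Slc4a1* had lower means in the knockout, with median differences of -0.21, -0.22 and -0.36, 0 of them passed limma's adjusted threshold, and 2, 2 and 1 had a raw p below 0.05. In *Slc4a1*, the anion exchanger of red cells, and in *Gja1*, *S100b* and *Col1a1* of the other lists, the groups did not overlap. *Epx* of eosinophils was separated upwards (difference 0.092), with 2 of 13 probe sets above background. Over all genes 8.85% were separated downwards and 11.3% upwards. A raw p below 0.05 was reached by 14.1% of all genes (limma), 6.12% lower and 7.95% higher. Fewer cells of a type and less RNA per cell cannot be told apart in such bulk samples, and the part of these cell types in the values below was not tested.

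*Alox12b* and *Alox8* are next to each other on chromosome 11 in RefSeq's gene order (GRCm38.p6), after *Aloxe3*. Yet they are the extremes of the set in how much the gene means of arrays of 1 group differed. The 250 bases before their starts are shown to set these neighbours side by side, from RefSeq (GRCm38.p6), 5′ to 3′ on each gene's strand, with the dinucleotide CG in capitals. The *Alox12b* window is chr11:69156822-69157071 on the plus strand, and the *Alox8* window is chr11:69197844-69198093 on the minus strand.
Alox12b: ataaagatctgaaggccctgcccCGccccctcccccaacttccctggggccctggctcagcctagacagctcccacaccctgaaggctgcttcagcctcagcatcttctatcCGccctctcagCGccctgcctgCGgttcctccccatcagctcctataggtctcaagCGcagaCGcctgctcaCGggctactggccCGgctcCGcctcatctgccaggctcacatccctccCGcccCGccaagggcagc
Alox8: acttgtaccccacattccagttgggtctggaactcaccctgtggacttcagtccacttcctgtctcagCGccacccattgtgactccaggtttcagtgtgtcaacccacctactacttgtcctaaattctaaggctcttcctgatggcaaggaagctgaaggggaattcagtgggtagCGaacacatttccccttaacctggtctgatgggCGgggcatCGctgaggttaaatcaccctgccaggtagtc

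The *Alox12b* window holds 11 CG and the *Alox8* window 4, against a median of 6 over 32851 windows of this length, of which 92.1% hold at least 1. CG reads the same on both strands. Neither window holds the letters TATAAA on either strand, which 12.4% of all windows do. A window was at hand for 6 of the 9 genes. *Aloxe3*, *Alox15* and *Ggt5* have no entry. The *Lta4h* window also holds 11 CG and the *Alox12* window also 4, with within-group SDs of the gene mean of 0.080 and 0.21. A link of CG content to the spread of arrays was not tested.

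Substrate release comes first. *Pla2g4a* encodes cytosolic phospholipase A2 alpha, which frees arachidonic acid from membrane phospholipids. Its 19 probe sets averaged 5.86, 5.75 and 6.01 in controls 1, 2 and 3 and 5.70, 5.85 and 5.87 in knockouts 1, 2 and 3. The groups overlap, with control 3 highest and knockout 1 lowest. The log2 difference was -0.065 (SE 0.078, 95% interval -0.25 to 0.12, limma adjusted p = 0.743), and it was 0.0027 without control 3. Along the gene, 14 of 19 probe sets were above background. The brightest, 10358445, gave 8.61, 8.30 and 8.54 in controls and 8.22, 8.44 and 8.67 in knockouts, and the dimmest, 10358452, gave 1.96 to 3.30 over the 6 arrays. At 10358447, which had the smallest raw p of the gene, controls read 6.08, 5.60 and 6.11 and knockouts 5.21, 5.72 and 5.19. Knockout 2 lies inside the control range there, and the log2 difference of -0.56 (SE 0.20) had a limma adjusted p of 0.621. The next smallest, at 10358439, had a difference of -0.26 (SE 0.12). *Ptgs2*, the inducible cyclooxygenase and the next protein-coding gene on chromosome 1, takes the same substrate. Its gene mean was 7.74, 7.58 and 7.95 in controls and 7.70, 7.66 and 7.67 in knockouts, an overlap with control 2 below every knockout array.

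*Alox12* encodes the platelet-type lipoxygenase. Its gene mean was 4.87, 4.46 and 4.41 in controls and 4.76, 4.98 and 4.67 in knockouts. Control 1 lies within the knockout range, and controls 2 and 3 lie below every knockout array. The difference, 0.23 (SE 0.13, 95% interval -0.079 to 0.53), was the largest of the 9 in size and did not pass (limma adjusted p = 0.473). Only 5 of its 16 probe sets were above background, and 13 of 16 were higher in the knockout; probe sets of 1 gene share their arrays and are not independent. Within the controls, control 1 was highest at 12 of 16 probe sets. Without control 1 the difference was 0.37, and it was 0.14 without control 3 and also without knockout 2.

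Among single probe sets, the smallest raw p of the whole set was in *Alox12*. Probe set 10387831 read 5.0, 5.30 and 5.12 in controls and 5.90, 6.10 and 5.60 in knockouts. All knockout arrays are above all controls. The log2 difference of 0.73 (SE 0.15) did not pass (limma adjusted p = 0.522). Probe set 10387835 was also separated, with 5.65, 5.22 and 5.36 in controls and 5.86, 5.72 and 5.97 in knockouts, a difference of 0.44 (SE 0.14, limma adjusted p = 0.586). The brightest, 10387827, was not, at 6.35, 5.32 and 5.85 against 6.25, 6.50 and 5.89, and the dimmest, 10387834, ran from 2.74 to 3.86. For comparison, the platelet genes *Itga2b*, *Gp1ba* and *Itgb3* averaged 5.14 to 5.18 in controls and 5.04 to 5.18 in knockouts, and *Gp1ba* had 0 of 2 probe sets above background. The part of platelets in the *Alox12* values was not tested.

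*Alox15*, the lipoxygenase of macrophages and other leukocytes, was dim as well, with 6 of 15 probe sets above background. Gene means were 4.67, 4.61 and 4.55 in controls and 4.71, 4.63 and 4.74 in knockouts. Knockout 2 lies among the controls and knockouts 1 and 3 lie above them. A difference of 0.085 (SE 0.055, 95% interval -0.042 to 0.21, limma adjusted p = 0.519) came out. With the median signal of its probe sets on each array in place of their mean, it was -0.16. The median of its probe set differences was 0.13, with 9 higher and 6 lower. Without control 3 the gene mean difference was 0.054. At the brightest probe set, 10387859, controls spread over 6.58, 6.29 and 6.03 while knockouts read 6.62, 6.60 and 6.61. The groups are apart there by the gap between control 1 and knockout 2, and the difference of 0.31 (SE 0.15) did not pass (limma adjusted p = 0.666). Probe set 10387863 had the smallest raw p in the gene (0.33, SE 0.13), with knockout 2 at 5.09 and control 3 at 5.11, and 10387862 came next (0.33, SE 0.14). The dimmest, 10387861, ran from 2.64 to 3.36. *Alox12e*, an epidermal lipoxygenase gene that lies between *Alox12* and *Alox15*, was no member and had a gene mean difference of -0.079 (SE 0.068, limma adjusted p = 0.621). *Epx*, the measured gene of eosinophils, was at 4.14 to 4.24 in controls and 4.26 to 4.28 in knockouts, with 2 of 13 probe sets above background.

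The remaining lipoxygenases form 1 run of neighbours on chromosome 11, and all are known mainly from skin. *Alox12b* encodes the R-type lipoxygenase of the epidermal barrier. Its gene mean varied more between arrays of 1 group than that of any other gene of the set. Gene means were 6.21, 6.62 and 5.92 in controls and 6.63, 6.26 and 6.45 in knockouts. Controls span 0.70 log2 units, which covers knockouts 2 and 3 and nearly reaches knockout 1. The difference of 0.20 (SE 0.17, 95% interval -0.20 to 0.59) did not pass (limma adjusted p = 0.627). It was 0.38 without control 2, 0.033 without control 3 and 0.11 without knockout 1.

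This spread ran along the gene. Control 2 was the highest control at 15 of 17 probe sets, and control 3 the lowest at 13 of 17. In the knockouts, knockout 1 was highest at 10 and knockout 2 lowest at 12. Of the 17 probe sets, 16 were above background. At 10377493 controls read 5.66, 6.76 and 4.98 and knockouts 6.31, 5.84 and 6.28, and at 10377502 controls read 4.93, 5.82 and 4.04 and knockouts 5.54, 4.65 and 5.37. Both probe sets, chosen after their values were seen, put the arrays in the order control 2, knockout 1, knockout 3 from the top, as the gene mean nearly does. The within-group SD of the gene mean, 0.28, was larger than in 98.9% of all genes. The brightest probe set, 10377499, shared less of it, at 7.88, 7.93 and 7.84 against 8.17, 7.76 and 7.75. The smallest raw p belonged to 10377496, with 5.45, 5.38 and 5.17 in controls and 6.07, 5.39 and 6.11 in knockouts (0.52, SE 0.21, limma adjusted p = 0.644), and the next to 10377495 (0.21, SE 0.11). The dimmest, 10377507, ran from 2.07 to 2.74.

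**Figure D2:**
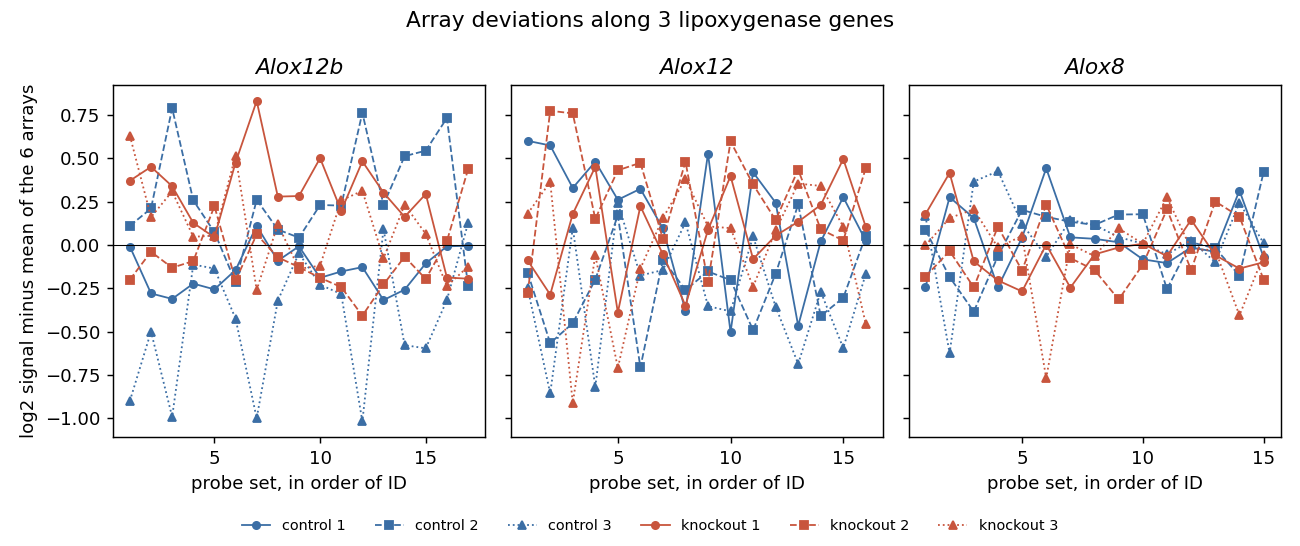
Log2 signal of each array minus the mean of the 6 arrays (vertical axis) at every probe set, in order of ID (horizontal axis), for *Alox12b*, *Alox12* and *Alox8*. Blue lines are controls and red lines knockouts; in *Alox12b* control 3 (blue triangles) runs low and control 2 (blue squares) high along most of the gene, while in *Alox8* the arrays cross.

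*Alox8*, a lipoxygenase of mouse skin, was the reverse in the spread of its gene mean. Gene means were 6.87, 6.87 and 6.89 in controls and 6.81, 6.80 and 6.80 in knockouts. Every knockout array is below every control, by a small step. The difference was -0.077 (SE 0.043, 95% interval -0.18 to 0.022, limma adjusted p = 0.454). All 15 probe sets were above background, and 12 of 15 were lower in the knockout. Leaving out single probe sets kept the groups apart in 14 of 15 cases. The within-group SD of the gene mean, 0.011, was among the smallest 0.379% of genes, and the moderated SE is wider than the SDs of 0.014 and 0.0050 alone would give. Single probe sets spread more. The SDs in controls and knockouts were 0.046 and 0.049 at 10387266 and 0.45 and 0.23 at 10387259. With the median signal of its probe sets on each array in place of their mean, the difference was -0.0033. The median of its probe set differences was -0.09.

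Single probe sets of *Alox8* did not follow the gene mean closely. At 10387266 controls read 7.66, 7.74 and 7.74 and knockouts 7.57, 7.48 and 7.56, and at 10387265 they read 7.85, 7.94 and 7.95 and 7.56, 7.73 and 7.81. Both are separated downwards. The smallest raw p, however, lay at 10387269, where controls read 5.77, 5.62 and 5.82 and knockouts 5.81, 6.08 and 6.15, a difference of 0.28 (SE 0.12, limma adjusted p = 0.656) in the other direction. The brightest, 10387270, differed by -0.017 (SE 0.098), and the dimmest, 10387272, ran from 4.78 to 5.50.

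*Aloxe3* encodes the epidermal enzyme that turns fatty acid hydroperoxides into epoxyalcohols. Gene means were 6.53, 6.46 and 6.48 in controls and 6.40, 6.39 and 6.39 in knockouts, so the groups did not overlap. The difference was -0.091 (SE 0.045, 95% interval -0.20 to 0.013, limma adjusted p = 0.407), and its raw p of 0.077 was the smallest of the 9. It leaned on 1 probe set. At 10377489, the last by ID, controls read 5.10, 5.42 and 5.69 and knockouts 4.49, 5.05 and 4.27, a difference of -0.80 (SE 0.24, limma adjusted p = 0.581). Without 10377489 the gene mean difference was -0.044 and the groups overlapped. Its mean over the 6 arrays, 5.003, was just under the background line, and 14 of the 16 probe sets were above that line. Against the other probe sets of the gene it was lower by a log2 difference of -0.76 in the knockout. That gap had a limma adjusted p of 0.084 with diffSplice, which tests each probe set against the rest of its gene with 1 variance per gene, and 0.897 with a variance per probe set. Probe set 10377486 was also separated, at 7.68, 7.63 and 7.66 against 7.53, 7.41 and 7.29 (-0.25, SE 0.090). The brightest, 10377482, differed by -0.027 (SE 0.13) and the dimmest, 10377475, ran from 3.84 to 4.75. Of the epidermal keratin genes, *Krt10*, *Krt14*, *Krt15* and *Krt17* averaged 4.97 to 5.004 in controls and 4.91 to 4.97 in knockouts, and only *Krt10* had most of its probe sets above background, 6 of 8. The part of skin cells in the lipoxygenase values was not tested.

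**Figure D3:**
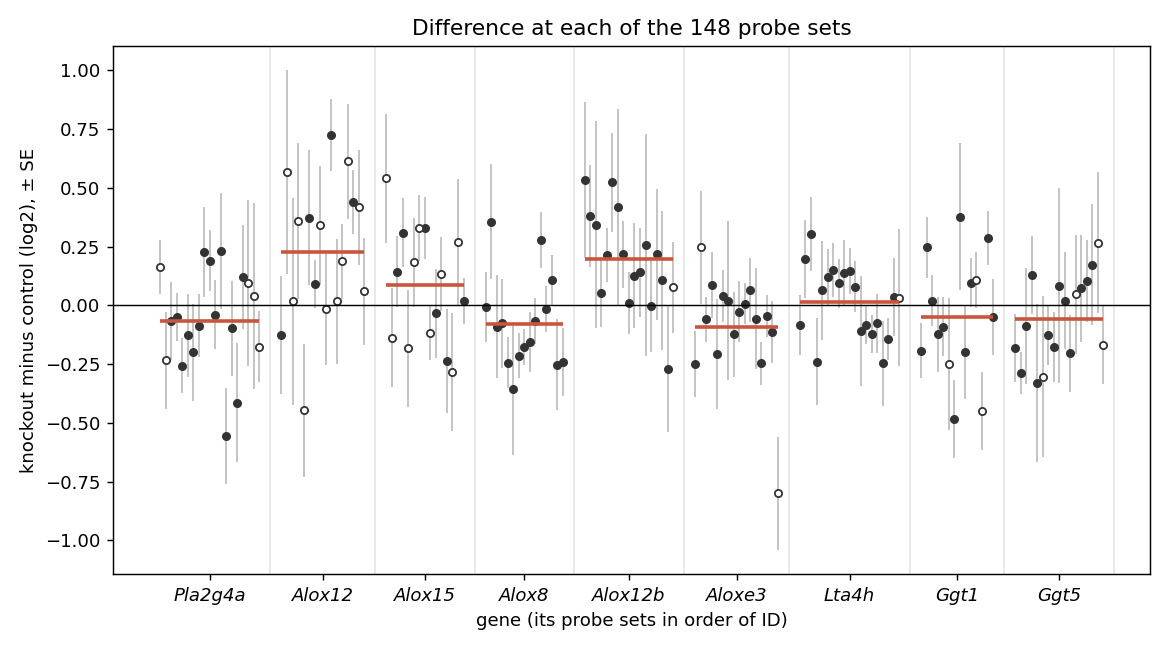
Knockout minus control (log2, vertical axis) with its SE at each of the 148 probe sets, ordered by gene and ID. Filled points are above the olfactory receptor background and open points are not, and red lines give the gene mean differences; the lowest point is *Aloxe3* 10377489 at -0.80 and the highest *Alox12* 10387831 at 0.73.

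Downstream of *Alox5*, *Lta4h* encodes the hydrolase that makes leukotriene B4 and also acts as an aminopeptidase. Gene means were 7.43, 7.40 and 7.47 in controls and 7.46, 7.54 and 7.33 in knockouts. The knockouts enclose all controls, and the difference was 0.013 (SE 0.063, limma adjusted p = 0.949). The 95% interval, -0.13 to 0.16, covers folds from 0.912 to 1.12. Its sign was not stable, at -0.035 without knockout 2 and -0.010 after quantile normalization. Of 19 probe sets, 18 were above background and 0 had a raw p below 0.05. The brightest, 10365766, read 8.97, 9.11 and 9.11 in controls and 8.83, 8.94 and 8.99 in knockouts (-0.14, SE 0.088). The 2 with the smallest raw p differed in sign, 10365752 by 0.30 (SE 0.16) and 10365766 by that -0.14. The dimmest, 10365768, ran from 2.50 to 3.40. Within the knockouts, knockout 2 was highest at 12 of 19 probe sets, the array on which microglial genes were lowest, and their part in this was not tested. *Ltc4s*, the synthase of leukotriene C4 on the other branch and no member, was at 5.46, 5.59 and 5.72 in controls and 5.63, 5.56 and 5.63 in knockouts, a difference of 0.015 (SE 0.072, limma adjusted p = 0.949), with 4 of 7 probe sets above background.

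Extracellular trimming of leukotriene C4 and of glutathione falls to *Ggt1* and *Ggt5*, neighbours on chromosome 10. *Ggt1* encodes the widely expressed gamma-glutamyl transferase. Its gene mean was 5.80, 5.96 and 5.82 in controls and 5.83, 5.83 and 5.78 in knockouts. Control 2 stands above the other 5 arrays, which lie within 0.045 of each other, and without it the difference of -0.050 (SE 0.057, limma adjusted p = 0.726) became 0.00036. *Ggt1* had the smallest diffSplice p of the set for unequal differences among its probe sets, 0.069 raw and 0.742 adjusted. Of its 14 probe sets, 2 were separated downwards. At 10364064 controls read 5.82, 5.84 and 5.86 and knockouts 5.72, 5.09 and 5.26 (-0.48, SE 0.17), and at 10364069 they read 4.94, 5.42 and 5.17 and 4.76, 4.93 and 4.49 (-0.45, SE 0.17). In 10364070 the difference was the other way (0.29, SE 0.12). These values had limma adjusted p from 0.607 to 0.644. The brightest, 10364060, differed by 0.020 (SE 0.11), the dimmest was 10364063, with a mean of 4.41, and 11 of 14 probe sets were above background.

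*Ggt5*, whose product is known for cleaving leukotriene C4, had gene means of 5.26, 5.47 and 5.42 in controls and 5.19, 5.45 and 5.34 in knockouts. The groups overlap, with replicate 1 lowest in both. The difference was -0.057 (SE 0.081, 95% interval -0.25 to 0.13, limma adjusted p = 0.790). At 10364074 the groups were apart, with 5.43, 5.53 and 5.64 against 5.25, 5.18 and 5.31 (-0.29, SE 0.090, limma adjusted p = 0.589), and 10364073 came next by raw p, at -0.18 (SE 0.14). The brightest, 10364082, differed by 0.020 (SE 0.21), the dimmest, 10364090, ran from 2.51 to 3.15, and 13 of 17 probe sets were above background. *Ggt6*, a further member of the family outside the set, differed by -0.020 (SE 0.097) with 3 of 5 probe sets above background.

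Counted over all 148 probe sets, 0 passed limma's adjusted threshold, where 3 of 58919 (0.00509%) did in the whole table. At a raw p below 0.05 there were 12 (8.11%), against 7.69% of all probe sets. Of them 6 were higher, against 4.75% of all, and 6 lower, against 2.94%. A difference below 0 was seen at 70 (47.3%, against 47.2% of all). The groups were apart upwards at 3 (2.03%, against 7.94% of all) and downwards at 7 (4.73%, against 5.52%). The median difference was 0.018, and 0.010 over the whole table. Tested with diffSplice for unequal differences within a gene, 0 of 9 passed, where 42 of 4470 genes (0.940%) did, and 0 of 9 had a raw p below 0.05, where 7.54% did. Of the single probe sets against the rest of their genes, 9 (6.08%) had a raw diffSplice p below 0.05, against 5.20% of all, and 0 passed after adjustment, against 0.475%. By each gene's brightest probe set, limma called 0 of 9 and 0 of 5017 genes (0%), and 0 of 9 had a raw p below 0.05, where 9.61% of all genes did, 3.71% higher and 5.90% lower. The groups were apart upwards in 1 of 9, *Alox15*, against 6.20% of all genes, and downwards in 0, against 8.37%. A difference below 0 was seen in 4 of 9, against 56.7%.

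Of 95 further genes listed for eicosanoid synthesis, breakdown and receptors, 16 were measured here. By gene mean 12 were lower and 4 higher, where 51.4% of all genes were lower. Their median was -0.063, and 0 passed (limma, smallest adjusted p 0.236). Raw p below 0.05 was reached by 4, all lower and all with groups that did not overlap. Over all genes 6.12% were lower at that p, and 8.85% were separated downwards. *Akr1c18*, an aldo-keto reductase of steroid and prostaglandin metabolism, was at 6.66, 6.44 and 6.90 in controls and 6.13, 6.42 and 6.19 in knockouts. Control 2 and knockout 2 nearly meet. All 9 of its probe sets were lower, and the difference of -0.43 (SE 0.12, limma adjusted p = 0.236) was the largest in size of the 16. *Acsl3*, which activates long-chain fatty acids, differed by -0.14 (SE 0.055), and 13 of 14 probe sets were lower. *Gpx4*, which reduces lipid hydroperoxides, and *Prdx6*, a peroxiredoxin with phospholipase activity, differed by -0.14 (SE 0.051) and -0.15 (SE 0.049). At the brightest probe sets *Akr1c18* and *Acsl3* had overlapping groups, with -0.28 (SE 0.12) and -0.090 (SE 0.061). *Gpx4* and *Prdx6* were separated downwards there too, each by -0.22 (SE 0.056 and 0.077), as was *Ephx1*, an epoxide hydrolase gene (-0.14, SE 0.062). By brightest probe set 12 of 16 were again lower, where 56.7% of all genes were. Of the 16, 3 had a raw p below 0.05, where 9.61% of all genes did, and 0 passed (limma, smallest adjusted p 0.449). Groups were apart downwards in 8.37% of all genes by that measure. *Ptgs2* was apart at its brightest, 10350524, with 9.17, 9.27 and 9.52 in controls and 8.96, 9.07 and 9.12 in knockouts (-0.27, SE 0.10, limma adjusted p = 0.515), against -0.081 (SE 0.089) by gene mean.

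**Figure D4:**
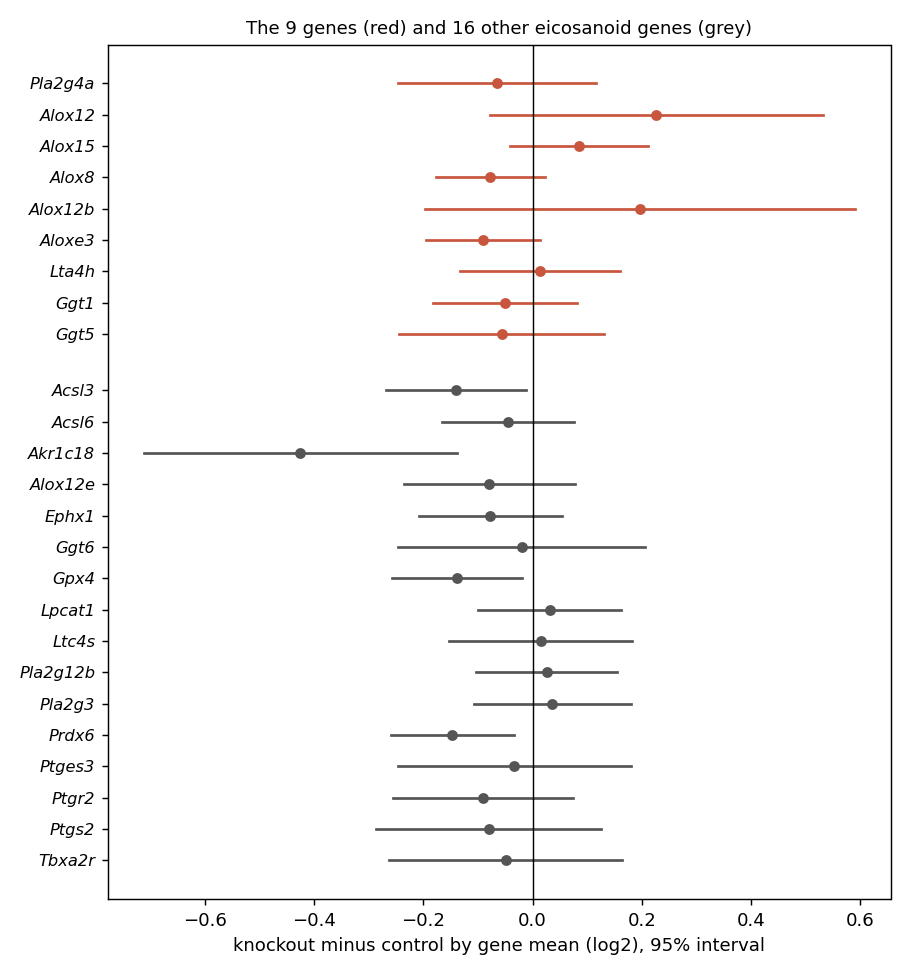
Knockout minus control by gene mean (log2, horizontal axis) with the 95% interval of the moderated fit for the 9 genes (red) and the 16 other eicosanoid genes (grey). All 9 red intervals include 0; among the grey ones *Akr1c18*, *Acsl3*, *Gpx4* and *Prdx6* do not, before adjustment over genes.

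By likeness over the 6 arrays, *Lta4h* was closest to *Xpot* (Pearson r 0.972), *Sf3b5* (0.970) and *Rab3gap2* (0.960) among 3608 genes above background, of which 22 had an r above 0.9. *Alox8* was closest to *Efcab15* (0.999), *Nxph4* (0.992) and *Mgst3* (0.990), with 86 genes above 0.9. The *Alox8* groups differ by -0.077 with SDs of only 0.014 and 0.0050, so its r mostly follows the step between groups. With 6 arrays in 2 groups, these r values are a description.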

How the data were processed

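The authors deposited log2 signals with 2 decimals for 65535 features on 6 arrays. Per the submitters' processing notes MAS5 was used; the sources used here do not state how arrays were scaled, and the log2 scale was read from the values. The 6616 features with IDs below the first annotated one were taken as control features and left out. Of 58919 probe sets, 53644 had 1 symbol, 877 several and 4398 none in the platform annotation, with symbols updated through RefSeq (GRCm38.p6). Values were used as deposited, since array medians differed by 0.05. Knockout minus control was fitted with limma 3.58.1 in R 4.3.3 (lmFit, eBayes, two-sided, Benjamini-Hochberg over the whole table, threshold 0.05) on probe sets, on gene means and on each gene's brightest probe set, and with diffSplice over genes of at least 2 probe sets. The fits were tested on simulated data with noise drawn independently for each probe set. Probe sets of 1 gene that move together on an array were therefore not simulated. There diffSplice also called unchanged genes, so a fit with a variance per probe set was added after seeing the data. The number of arrays limits the precision. Intervals are from the moderated fit.

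Named were all 9 genes, with their brightest, their dimmest and the 2 probe sets of smallest raw p. Outside this rule stand *Alox8* 10387265 and 10387259, *Ggt1* 10364070, and *Alox12b* 10377493 and 10377502. Pathway genes with a raw p below 0.05 by gene mean were named too. So were the 3 genes most like each of the 2 members of highest gene mean. *Alox12e*, *Ltc4s*, *Ggt6*, *Ptgs2* and *Ephx1* were also named, though their raw p by gene mean was not below 0.05. Members and lists were chosen with earlier results of these data known. Alternatives covered scaling, dim probe sets, variance model, array weights, replicate block, arrays left out, the median of probe sets and the threshold.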

Additional observations from a re-analysis of the deposited data

How the results depend on the processing

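Member counts past the threshold were 0 under the alternatives run for probe sets, gene means, brightest probe sets and the gene test of unequal differences, with the replicate block (0; same-numbered arrays, with correlations of 0.037, -0.070 and -0.10 of their deviations, share only a number) and without each array (0 to 0) included; the whole table gave 3 probe sets, 0 with that block and 0 to 21 over all of these. The fit without the 1 probe set that moves a gene mean most and the fit with a variance per probe set were chosen after seeing the data. Of the members' probe sets, 112 were above the olfactory 95th percentile and 0 above that of the control features, which include bright ones. By gene mean, *Lta4h* turned to -0.010 with quantile normalization, -0.0067 with median centring, -0.043 with the median of probe sets and -0.0028 without its probe set 10365752, and under that median *Alox15* was -0.16, *Ggt1* 0.073 and *Ggt5* 0.0033. That median is of the signals on each array. The medians of the probe set differences kept the signs of the gene means, at 0.037 (*Lta4h*), 0.13 (*Alox15*), -0.07 (*Ggt1*) and -0.087 (*Ggt5*). By brightest probe set, *Alox12b* turned to -0.015 and *Ggt1* to -0.012 with quantile normalization, *Alox12b* to -0.010 and *Ggt1* and *Ggt5* to 0 with median centring, and *Alox8* to 0.0093 and *Aloxe3* to 0.0068 with array weights. Without 1 array, gene means ran from -0.035 to 0.070 (*Lta4h*), -0.13 to 0.0027 (*Pla2g4a*), -0.081 to 0.00036 (*Ggt1*) and -0.12 to 0.0099 (*Ggt5*), and brightest probe sets from -0.45 to 0.31 (*Alox15*), -0.13 to 0.34 (*Alox12b*), -0.093 to 0.052 (*Alox8*), -0.10 to 0.067 (*Aloxe3*), -0.15 to 0.072 (*Pla2g4a*), -0.047 to 0.098 (*Ggt1*) and -0.19 to 0.18 (*Ggt5*). The brightest probe set is chosen anew in each fit, so these ranges can compare different probe sets. Without control 1 the brightest was 10387867 in *Alox15* (-0.45) and 10377492 in *Alox12b* (0.34), in place of 10387859 and 10377499. The same 10387867 was the brightest of *Alox15* without knockout 1 (-0.168) and without knockout 2 (-0.173). Likewise 10377492 was the brightest of *Alox12b* without control 3 (0.225). The cause of the remaining changes was not tested. *Alox8* and *Aloxe3* stayed separated downwards by gene mean after both scalings, while the share of all genes so separated went from 8.85% to 11.5% (quantile) and 12.9% (centring), where *Ggt1* made a count of 3. Single probe sets were not retested by diffSplice under alternatives. At a threshold of 0.1, *Aloxe3* 10377489 passes with its adjusted p of 0.084 (limma diffSplice). It does not pass with a variance per probe set (limma adjusted p = 0.897), and its mean signal is just under the background line.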

Other observations

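Some other genes varied over the arrays much as *Alox12b* did. Among 97 genes above background with a within-group SD above 0.2, chosen after the *Alox12b* values were seen, *Plk5*, a polo-like kinase gene of brain, was the most alike, with a Pearson r of 0.944 over 6 arrays and 0.934 after taking out the group means. Its 17 probe sets averaged 7.13, 7.51 and 6.84 in controls and 7.39, 7.31 and 7.37 in knockouts. Control 3 is lowest of the 6 arrays and control 2 highest of the controls in both genes, and the highest of all 6 is control 2 in *Plk5* and knockout 1 in *Alox12b*. At the other end *Idi1*, an isomerase of isoprenoid synthesis, had an r of -0.958, with 8.14, 7.84 and 8.40 in controls and 7.60, 8.07 and 7.95 in knockouts. These genes were picked for their r, so the values are a description of 6 arrays.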
